A study of Caenorhabditis elegans with 2 samples.

Results

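Internal coding exon peaks are peaks listed for TBX-9-GFP that have their summits well inside protein-coding genes, in the coding sequence itself. Chromatin immunoprecipitation followed by sequencing had been carried out on 2 biological replicates of 1 group, whole young adult *Caenorhabditis elegans* of both sexes collected 63 hours after L1 synchronization. The worms were of strain OP636, which carries the mutation unc-119(tm4063) III and the integrated transgene wgIs636, so that TBX-9 is expressed with a C-terminal GFP-FLAG tag, and an antibody against GFP was used. The antibody field of the sample labels names tbx-9, the tagged protein. The labels do not state what drives the transgene's expression. Every animal carries the tagged transgene, no untagged strain was part of the files used, and a control experiment named in the labels was not analysed here. The members were taken from the authors' relaxed list of both libraries pooled, a list that by design holds background along with peaks. A peak was a member where its summit, the base of highest signal, lay in a CDS of a protein-coding gene, more than 1000 bp from every protein-coding transcript start, more than 250 bp from every coding transcript end and more than 500 bp from any tRNA, snoRNA, snRNA or miRNA gene. In all, 4526 of the 29990 nuclear peaks met this rule, or 15.1%.

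T-box proteins are transcription factors that bind DNA through a conserved domain, classically at sites that contain GGTGTG, and TBX-9 is known for its part in morphogenesis of the embryo. Regulatory elements of worm genes lie mostly in promoters and introns. Coding exons are under the constraint of the protein they encode, are richer in G and C than the introns around them, and are transcribed.

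Of the nuclear peaks, 10537 had a summit in coding sequence, 5169 of these were also far from every transcript start, 4584 from every end as well, and 4526 from every small RNA gene. All 4526 were 390 bp wide. In the transcript with the longest coding sequence, 4069 members (89.9%) lay in an exon that is neither first nor last, 441 (9.74%) lay in the last exon, 15 in the first and 1 in the exon of a single-exon gene. The word internal thus describes distance from the transcript's start and end, and for about 1 member in 10 not the order of the exons. The 340 members less than 100 bp inside the start limit had a median percentile of signal of 51.0 in the pooled list, and the 290 peaks less than 100 bp outside it had 49.5.

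The bases within 50 bp of the summits are given here for the 8 members with the highest pooled signal that could be shown. They are RefSeq WBcel235 sequence (the assembly also called ce11) on the coding strand of the host gene, 5′ to 3′, with the summit base in capitals.

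ttr-15 chrIII:10339062-10339162 (+ strand): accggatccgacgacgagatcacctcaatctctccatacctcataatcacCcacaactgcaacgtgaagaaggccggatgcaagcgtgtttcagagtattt
clec-264 chrV:20847953-20848053 (- strand): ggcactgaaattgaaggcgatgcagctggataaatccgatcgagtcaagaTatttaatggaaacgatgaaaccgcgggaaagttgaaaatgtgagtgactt
mnk-1 chrII:10547526-10547626 (- strand): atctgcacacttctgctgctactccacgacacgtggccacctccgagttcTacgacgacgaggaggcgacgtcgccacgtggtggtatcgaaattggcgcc
cah-4 chrX:13544107-13544207 (+ strand): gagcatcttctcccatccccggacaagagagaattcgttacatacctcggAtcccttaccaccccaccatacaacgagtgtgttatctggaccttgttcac
kel-1 chrII:11690961-11691061 (+ strand): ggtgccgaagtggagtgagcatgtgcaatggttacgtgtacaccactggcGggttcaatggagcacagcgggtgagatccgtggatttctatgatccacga
icl-1 chrV:725174-725274 (- strand): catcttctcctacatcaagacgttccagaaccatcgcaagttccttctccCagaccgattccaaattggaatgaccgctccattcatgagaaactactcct
scav-2 chrIII:13553030-13553130 (- strand): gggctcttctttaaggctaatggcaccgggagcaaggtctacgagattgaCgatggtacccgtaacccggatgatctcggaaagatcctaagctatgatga
rsks-1 chrIII:11250074-11250174 (+ strand): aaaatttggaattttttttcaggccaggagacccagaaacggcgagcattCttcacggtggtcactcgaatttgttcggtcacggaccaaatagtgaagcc

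The host genes of these 8 windows encode proteins of different kinds: a transthyretin-like protein (ttr-15), a C-type lectin (clec-264), a MAP-kinase-interacting kinase (mnk-1), a carbonic anhydrase (cah-4), a kelch-repeat protein (kel-1), the glyoxylate cycle enzyme isocitrate lyase/malate synthase (icl-1), a CD36-related scavenger receptor (scav-2) and the ribosomal S6 kinase (rsks-1). Their GC content was between 42.6% in clec-264 and 60.4% in mnk-1. The clec-264 window runs 11 bases past the 3′ edge of its coding exon and the rsks-1 window begins 22 bases before its exon. The other 6 windows lie wholly in coding sequence. The hexamer GGTGTG was within 100 bp of the summit on either strand in 1 of the 8, cah-4, and there it lies outside the printed bases.

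The strongest member was in exon 2 of 2 of ttr-15, with its summit at chrIII:10339112. Its signal value was 93.7 in the pooled list, where it ranked 162, and the overlapping replicate peaks had 56.9 in replicate 1 (rank 175) and 43.4 in replicate 2 (rank 168). The authors' signal values have no stated scaling for depth, so levels are read here within a list only, by rank. The ttr-15 summit lies 894 bp from the nearest base of tbx-9, the gene of the tagged protein, which runs from 10340006 to 10341858 on the minus strand of the same chromosome.

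The peak in exon 4 of 5 of clec-264, at chrV:20848003, was almost as strong, with a pooled signal of 92.7 at rank 169. Its replicate peaks had 50.4 in replicate 1 (rank 282) and 47.9 in replicate 2 (rank 116). It lies 276 bp from the end of fkb-6, a gene for an FK506-binding protein on the other strand. The ttr-15 and clec-264 summits stood clear of the rest of the members, since the next, in mnk-1, had a pooled signal of 68.3 at rank 482, with 38.4 in replicate 1 and 35.6 in replicate 2.

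Below mnk-1 the values ran closely together. The peaks in cah-4 and kel-1 had pooled signals of 67.1 and 67.0, and those in icl-1, scav-2 and rsks-1 had 64.8, 64.3 and 62.6. The next were algn-12, for a mannosyltransferase of N-glycan synthesis, at 61.2, picd-1 at 59.8, acbp-6, for an acyl-CoA-binding protein, at 59.5, and imp-2, for an intramembrane protease, at 58.9. The list of 20 ended with vgln-1 (vigilin, an RNA-binding protein), swt-1 (a SWEET sugar transporter), col-87 (a cuticle collagen), gdh-1 (glutamate dehydrogenase), daam-1 (a formin), vit-6 (a vitellogenin), acer-1 and elpc-2 (an elongator complex subunit) between 58.3 and 55.8. Of the 20 summits, 7 lay in the last exon of the gene.

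All 20 had a relaxed peak in both replicates, and in 18 of them both replicate summits lay within 100 bp of the pooled one. The replicates did not rank them alike. Ranks ran between 175 and 3755 in replicate 1 and between 116 and 7199 in replicate 2. The swt-1 peak, for example, had a signal of 36.2 (rank 1086) in replicate 1 and of 16.8 (rank 7199) in replicate 2. In imp-2 the order was the other way, with 26.6 (rank 3755) in replicate 1 and 29.8 (rank 747) in replicate 2.

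**Figure D1:**
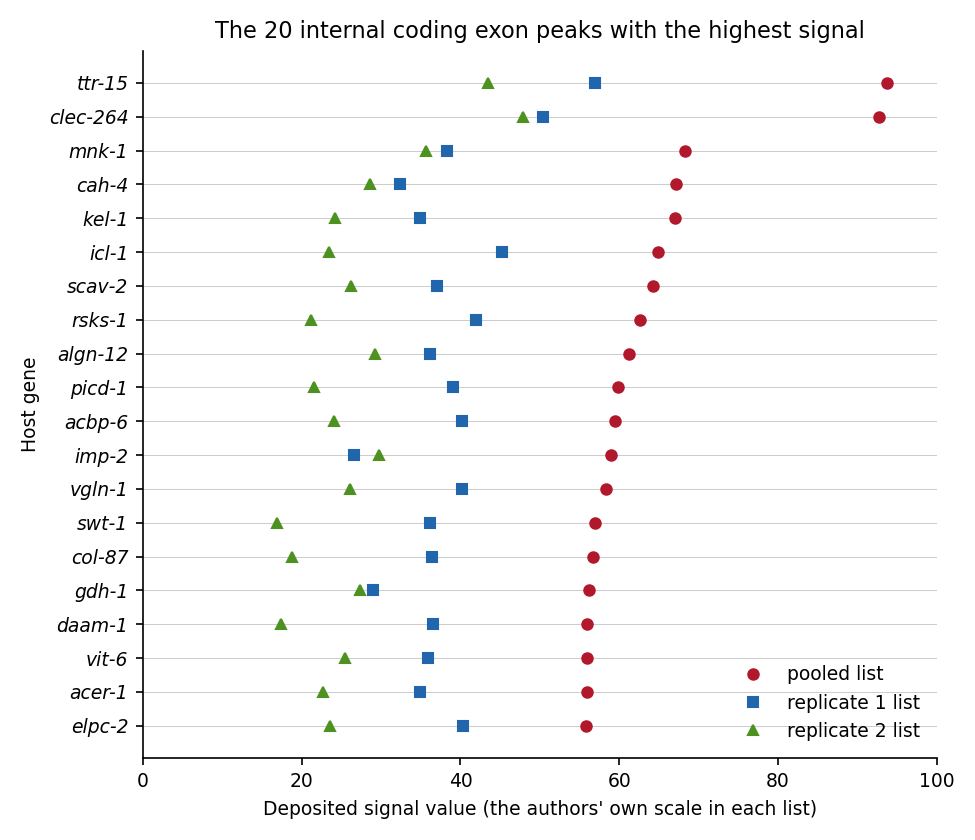
Deposited signal value (horizontal axis, the authors' own scale in each list) of the 20 strongest internal coding exon peaks, by host gene, in the pooled list (circles), replicate 1 (squares) and replicate 2 (triangles). The ttr-15 and clec-264 peaks stand apart at 93.7 and 92.7 in the pooled list, and the other 18 lie between 68.3 and 55.8.

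The members' signal was near that of other peaks at the middle of the list, and few of them stood at its top. Signal values ran between 18.1 and 93.7 with a median of 24.7, and over the other 25464 nuclear peaks between 18.1 and 304.5 with a median of 25.2. The median percentile of signal in the pooled list, where 100 is the strongest, was 47.9 for members (quartiles 24.1 and 71.9) and 50.4 for other peaks. Cut into 10 equal bins by percentile, the list held between 450 and 497 members in each of the 9 lower bins and 272 in the highest. The highest bin held 6.01% of members (95% Wilson interval 5.35 to 6.74), against 10.7% of other peaks (10.3 to 11.1). All intervals here cover counting error only.

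The difference was wider further up. Among the 1000 strongest nuclear peaks were 24 members, or 0.530% of them (0.357 to 0.788), against 976 or 3.83% of other peaks. Among the 500 strongest were 3 members, ttr-15, clec-264 and mnk-1, or 0.0663% (0.0225 to 0.195), against 1.95% of other peaks. A deposited q at or under 0.05 was given to 103 members (2.28%), against 6.39% of other peaks. Intronic peaks at the same distances from starts, ends and small RNA genes, 4396 in number and called deep intronic peaks below, were near the members in some of these measures. They had 38 among the 1000 strongest (0.864%, 0.630 to 1.18), 2.34% with such a q, and 5.35% in the highest bin of percentile. Among the 500 strongest the members had a smaller share than the deep intronic peaks, which had 15 there (0.341%, 0.207 to 0.562). Among the 2000 strongest the shares were alike, with 2.96% of members and 2.89% of deep intronic peaks.

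**Figure D2:**
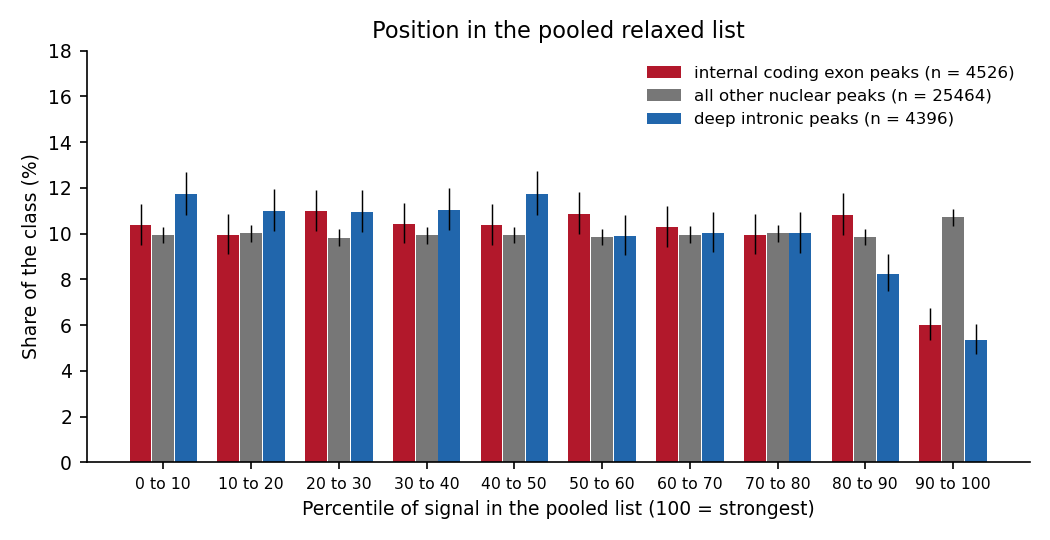
Share of each class (vertical axis, %) in 10 equal bins of the pooled list by percentile of signal (horizontal axis, strongest at the right), for internal coding exon peaks, all other nuclear peaks and deep intronic peaks, with 95% Wilson intervals as bars. Members are spread evenly over the 9 lower bins and have 6.01% in the highest one, near the 5.35% of deep intronic peaks, while other peaks have 10.7% there.

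Few summits that met the rule stood at the top of each replicate's own list too, but the difference from other peaks was less sharp. In replicate 1, 3163 summits met the rule, of 25645 nuclear peaks, and 44 of them (1.39%, 1.04 to 1.86) were among its 1000 strongest. Of its other peaks 4.25% were, and of its deep intronic ones 1.32%. In replicate 2, 5346 of 30000 met it and 71 (1.33%, 1.05 to 1.67) were among the 1000 strongest. Of its other peaks 3.77% were, and of its deep intronic ones 1.40%. In both replicates the shares of summits that met the rule were above the 0.530% of the pooled list.

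The authors' optimal list, cut by the irreproducible discovery rate (IDR), which keeps peaks that rank consistently between replicates, held almost none of them. It overlapped 2 members, ttr-15 and clec-264, or 0.0442% (0.0121 to 0.161), against 219 or 0.860% of other peaks and 10 or 0.227% of deep intronic ones. Seen from the IDR list, 31 of its 169 summits lay in coding sequence and 3 met the whole rule (1.78%, 0.606 to 5.09). The third of these was in nex-2, an annexin gene, where the overlapping pooled peak has its summit at 10328062, outside the eligible sequence, and so is no member. Both ttr-15 and nex-2 are within 25 kb of tbx-9. The members within that distance numbered 2, ttr-15 and a weak one in nex-2 (signal 24.1, rank 16579), in 5.92 kb of eligible sequence, where the mean density of members gives 2.36. That count takes no account of strength, and ttr-15 was the strongest member of all. The strain carries a transgene of tagged TBX-9, and whether it adds to the signal near tbx-9 was not tested.

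Most members were not found in both replicates. A relaxed peak overlapped by at least 1 bp in both for 1669 members (36.9%, 35.5 to 38.3), against 40.0% of other peaks and 32.1% of deep intronic ones (30.8 to 33.5). With an overlap of at least 50% of the shorter peak, the shares were 25.4% of members, 28.3% of other peaks and 21.8% of deep intronic ones. Replicate 1 alone had a peak at 1112 members (24.6%), against 28.4% of other peaks, and replicate 2 alone at 1355 (29.9%), against 23.4%. Neither replicate had one at 390 members (8.62%), against 8.14% of other peaks. The share found in both was 15.5% in the weakest 10% of the members and 86.8% in the strongest 10%.

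Where both replicates had a peak, their strengths were weakly related. Spearman's rho between the replicate signals was 0.112 over the 1669 members, against 0.331 over 10192 other peaks and 0.155 over 1413 deep intronic peaks. These values are a description, since the points come from the same pair of libraries and some share a replicate peak. Only 7 members overlapped a peak among the 1000 strongest of both replicates, or 0.155% against 1.94% of other peaks. They were ttr-15, clec-264, mnk-1, F39G3.3, F26F12.3, C27A2.12 and W02A11.1, and in the first 3 alone were both replicate summits within 100 bp of the pooled summit. The C27A2.12 member had a pooled signal of 27.8 at rank 11418, while the overlapping replicate peaks had 66.9 and 31.6, at ranks 91 and 594, with summits 226 and 200 bp away.

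Few members were strong in either replicate, but of those that were, a larger part than of other peaks had no peak in the other. Of the 53 members at one of the 1000 strongest peaks of replicate 1, 15 had no peak in replicate 2, against 140 of 1226 other peaks. Of the 87 at one of the 1000 strongest of replicate 2, 26 had none in replicate 1, against 125 of 1188 other peaks. With one of the 1000 strongest peaks of replicate 1 and none in replicate 2 there were 15 members, or 0.331% of members (0.201 to 0.546), against 0.550% of other peaks. With one of the 1000 strongest of replicate 2 and none in replicate 1 there were 26, or 0.574% (0.392 to 0.840), against 0.491% of other peaks. Outside the rule for names, and named after their values were seen, the strongest of each were T09B4.5, with 45.3 in replicate 1 (rank 436), and nadk-2, an NAD kinase gene, with 42.3 in replicate 2 (rank 184).

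**Figure D3:**
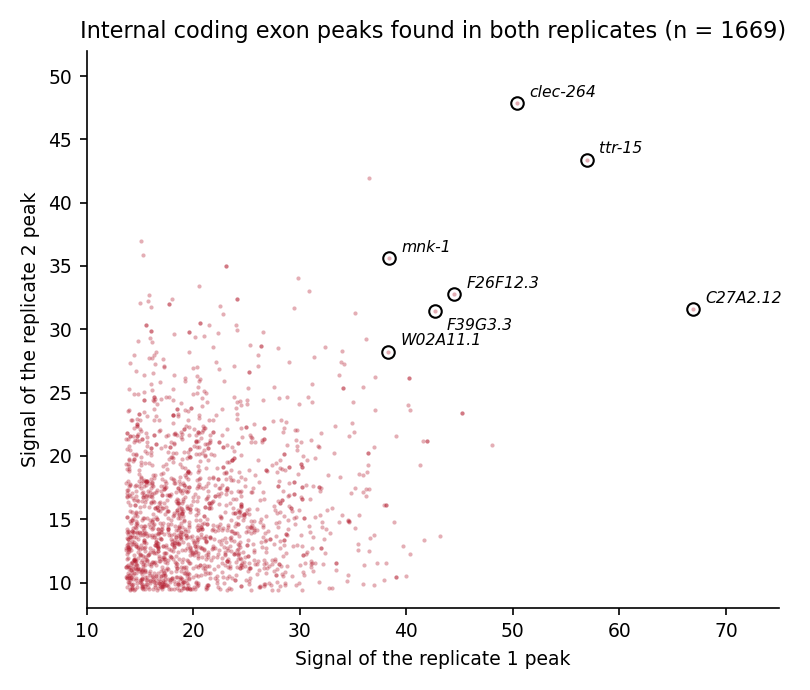
Signal of the overlapping peak in replicate 1 (horizontal axis) and replicate 2 (vertical axis, both on the authors' scale) for the 1669 internal coding exon peaks found in both, 1 point each. Circles and names mark the 7 that overlap a peak among the 1000 strongest of both replicates, and the remaining points form a cloud with little slope, with a Spearman's rho of 0.112.

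Without regard to GC, members were dense in their sequence. The rule leaves 11.3 Mb of eligible coding sequence, 45.9% of all coding bases and 11.3% of the nuclear genome. It held 399 members per Mb (95% Poisson interval 387 to 411), against 231 per Mb (224 to 238) in deep introns and 299 per Mb in the nuclear genome, 1.33 times the genome's density. The replicates differed in this. The density was 279 per Mb in replicate 1, 1.09 times its genome density, and 471 per Mb in replicate 2, 1.57 times. In deep introns it was 211 and 215 per Mb in the same lists.

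Density followed GC content closely. The median GC of the window that reaches 100 bases to either side of a member's summit was 43.3% (quartiles 39.3 and 47.8), against 40.3% over all eligible coding sequence and 39.3% at other peaks. Eligible coding sequence whose window had under 32% GC held 140 members per Mb, and the figure was 289 at 36 to 40%, 568 at 44 to 48% and 1437 per Mb (1218 to 1683) at 56% and over. Stronger members were also richer in GC, with medians of 41.8% in the weakest 10% of members and 46.3% in the strongest 10%. The 20 strongest had a median of 47.8%, between 36.8% in clec-264 and 60.2% in daam-1. The dependence held in both replicates, with 119 and 1099 members per Mb at the lowest and highest GC in replicate 1, and 144 and 1061 in replicate 2.

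At equal GC, coding sequence and deep introns had nearly the same density of pooled peaks, except under 32% GC, where coding sequence had 140 per Mb (112 to 172) and deep introns 86.3 (80.1 to 92.9). From the densities of deep introns in 8 bins of GC, 4580 members would be counted in the eligible coding sequence, against the 4526 observed, a ratio of 0.988 (0.960 to 1.02), where the ratio without regard to GC was 1.73. The replicates fell on opposite sides. The ratio at equal GC was 0.852 (0.823 to 0.882) in replicate 1 and 1.22 (1.19 to 1.26) in replicate 2. At 40 to 44% GC, for instance, replicate 1 had 252 peaks per Mb in coding sequence and 331 in deep introns, and replicate 2 had 525 and 421. The intervals of these ratios take the number expected from deep introns as exact. They leave out the counting error of the intronic peaks and are too narrow. This standardisation was chosen after the densities by GC had been seen, and the part that GC has in the density was not otherwise tested. Against the nuclear genome at equal GC, pooled coding density was lower in every bin between 32 and 56%, with 408 and 446 per Mb at 40 to 44%. It was higher under 32% (140 and 112) and at 56% and over (1437 and 1409). At 40 to 44% the genome had 333 per Mb in replicate 1, above coding sequence, and 494 in replicate 2, below it.

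**Figure D4:**
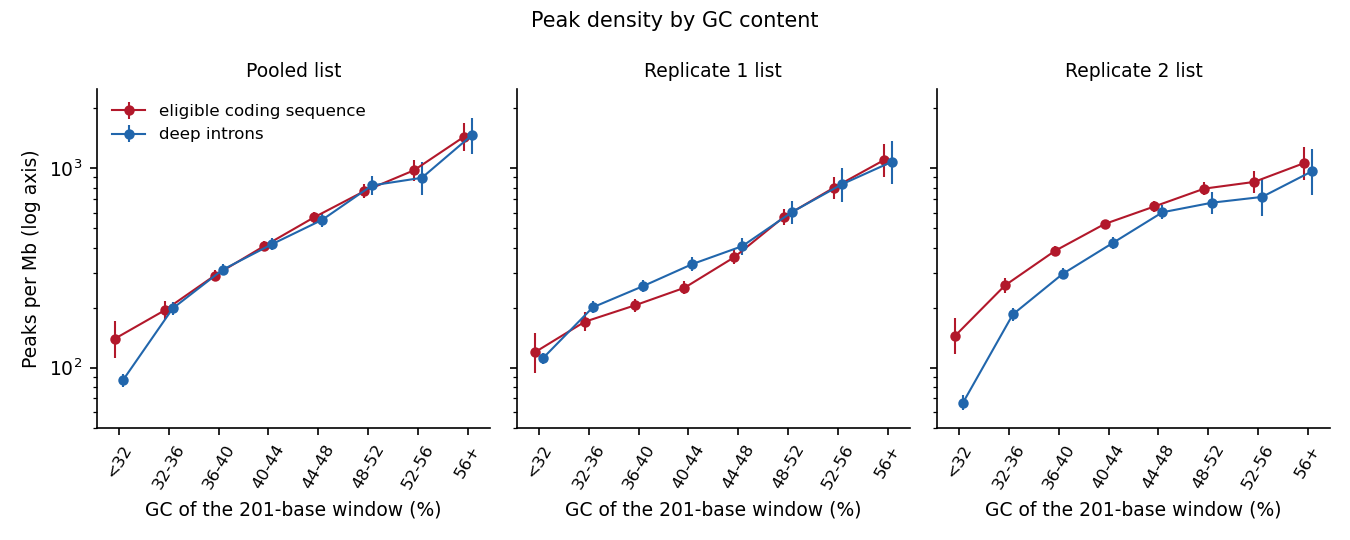
Peaks per Mb (vertical log axis) in eligible coding sequence and in deep introns, by GC content of the window around each base (horizontal axis, %), in the pooled list and in each replicate's list, with 95% Poisson intervals. In the pooled list the lines for coding sequence and introns lie together above 32% GC and reach 1437 and 1465 per Mb at 56% and over, while coding sequence lies lower in replicate 1 and higher in replicate 2 over the middle bins.

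Longer exons held more members per base. Coding segments of up to 150 bp held 302 members per Mb (279 to 326), and those over 1000 bp held 486 (450 to 524). GC rose with length too, with a median of 36.8% in the sequence of the shortest segments and 43.8% in that of the longest. Within a GC class the densities of the shortest and the longest segments had overlapping intervals, and their order varied. Under 40% GC the shortest had 234 members per Mb (211 to 259) and the longest 240 (191 to 297). At 40 to 46% GC the shortest had 480 (419 to 547) and the longest 418 (367 to 473). At 46% GC and over the shortest segments had the lowest density, with 602 per Mb (448 to 792) in the shortest, 888 (805 to 977) in the 400 to 700 bp class and 756 (679 to 840) in the longest. By distance from the start the density was similar, with 399 per Mb at 1000 to 1500 bp and 385 at 5000 to 10000 bp. The median member lay 86 bp from the nearer edge of a coding segment, against 68 bp for a base of eligible sequence, and 81.3% of its 390 bp was coding.

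The X chromosome held more members than its share of sequence. It had 922 (20.4%, 19.2 to 21.6), against 17.5% of the eligible sequence and 19.5% of other peaks. Of deep intronic peaks 22.9% (21.7 to 24.2) were on X, so a share of this size was not particular to members. The density of members was 464 per Mb (434 to 494) on X and 385 per Mb (373 to 398) on the autosomes. The difference was present in replicate 1, with 323 and 269 per Mb, and in replicate 2, with 524 and 460. Eligible sequence on X was slightly poorer in GC, at a median of 39.8% against 40.3%, and with GC held equal the ratio of X to autosomes was 1.25 (1.17 to 1.34) in the pooled list, 1.27 in replicate 1 and 1.16 in replicate 2. The number expected from the autosomes was again taken as exact in that interval.

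The T-box hexamer GGTGTG was uncommon at members. Looked for on either strand in the same window, it was present at 221 members (4.88%, 4.29 to 5.55), in 4.27% of windows centred on every 200th base of eligible sequence (4.10 to 4.43), at 6.28% of other peaks and at 6.46% of deep intronic ones. The longer GGTGTGA, which contains it, was at 78 members (1.72%) and in 1.46% of eligible windows. The full AGGTGTGA, which contains both, was at 15 members (0.331%, 0.201 to 0.546), in 0.308% of eligible windows and at 0.475% of other peaks. The median percentile of signal was 49.8 at the members with GGTGTG and 47.8 at those without, 59.0 with GGTGTGA and 47.8 without, and 53.6 with AGGTGTGA and 47.9 without. The upper quartiles did not follow the medians, with 68.3 and 72.1 for GGTGTG, 72.1 and 71.9 for GGTGTGA, and 64.8 and 72.0 for AGGTGTGA. GGTGTG was at 5.74% of the weakest 10% of members and at 3.53% of the strongest 10%, with no steady trend between. The strongest member with the full motif, named after its values were seen, was in shn-1, a Shank scaffold gene, at rank 4263. A match to these letters is a description and not a binding site.

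Sequence that occurs elsewhere in the genome was rare among members. More than 10% of the 31-base words of the window were repeated at 74 members (1.63%), against 9.46% of other peaks, and at 4342 members no word was repeated. The share over all eligible sequence is not given here, so this is no comparison with coding sequence at large. Other noncoding genes were near few of them. A piRNA gene lay within 250 bp of 47 members (1.04%, 0.782 to 1.38), where 1.73% of eligible sequence is that close to one, and a gene of the annotation's ncRNA class within 250 bp of 61 (1.35%), against 1.45% of eligible sequence.

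The members were spread over 3096 host genes, 25.1% of the 12342 protein-coding genes with eligible sequence, and 2266 of these hosts had a single member. How many a gene had went with the length of its eligible sequence. A member was found in 5.31% of genes with up to 0.25 kb and in 90.0% of the 60 genes with more than 8 kb, while the density stayed between 0.358 and 0.419 per kb in all 7 length classes. The genes with most members encode very large proteins, most of them of muscle, membrane skeleton or matrix. The titin gene ttn-1 had 17 in 52.6 kb (0.323 per kb), the spectraplakin gene vab-10 had 14 (0.703 per kb), and dig-1, for a giant matrix protein, had 13 (0.333 per kb). The next had 12 each: eel-1, for a HECT ubiquitin ligase (1.02 per kb), unc-44, for ankyrin (0.679 per kb), ketn-1, for kettin (0.983 per kb) and sma-1, for a large beta spectrin (1.11 per kb). Over all genes the density was 0.399 per kb. These hosts were picked for their pooled count, so a density above that of all genes is partly set by the choice. Intervals were wide, such as 0.573 to 1.94 per kb in sma-1 and 0.525 to 1.77 in eel-1. In the lists of replicates 1 and 2, sma-1 had 4 and 7 summits that met the rule, eel-1 10 and 6 and ketn-1 9 and 10. The others named had more in replicate 2 than in the pooled list.

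Within these genes the median signal lay on either side of the 24.7 of all members. The number of members found in both replicates is given for each gene, where the share over all members was 36.9%. With 12 to 17 members to a gene, these numbers are too small to set the genes apart. Some neighbouring members also overlap the same replicate peak, so that 1 peak can count more than once. Signals in ttn-1 ran between 18.7 and 42.0 with a median of 23.4, and 3 of its 17 members had a peak in both replicates. In dig-1 it was 2 of 13, with a median signal of 21.6. In vab-10 it was 8 of 14, with a median of 25.9, and in eel-1 5 of 12, with a median of 33.5. The median was 24.1 in sma-1, with 2 of 12 members found in both replicates, and 22.6 in unc-44, with 5 of 12. In ketn-1 5 of 12 were found in both, and signals ran between 19.5 and 37.9. In unc-44, 9 of the 12 members lay in 1 exon of 14975 bp. In ketn-1, 8 of 12 lay in an exon of 7569 bp. Members are not all independent sites, since 670 pairs of neighbours had summits at most 1 kb apart.

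Of 25 gene lists, 19 had at least 10 kb of eligible sequence. In 4 of them the whole 95% interval lay above the density of all genes, 0.399 per kb. Translation factors had 0.903 members per kb (0.451 to 1.62), led by eif-3.B with a signal of 45.0. Cuticle collagens had 0.829 (0.491 to 1.31), led by col-87 with 56.7. Chaperones and heat shock proteins had 0.707 (0.437 to 1.08), led by enpl-1, for the endoplasmic reticulum form of Hsp90, with 49.2, then hsp-6 with 47.9 and hsp-60 with 46.3, both for mitochondrial chaperones. Chromatin regulators had 0.504 (0.409 to 0.615), led by the histone deacetylase gene hda-4 with 39.5. In the list of replicate 1 they were near all genes, with 0.291 and 0.279 per kb, and in that of replicate 2 above, with 0.587 and 0.471. Translation factors, collagens and chaperones were above all genes in both replicate lists. In 2 lists the interval lay below, chemoreceptor genes with 0.238 (0.184 to 0.303), led by srh-243 with 46.0, and F-box and MATH domain genes with 0.243 (0.154 to 0.364), led by math-33 with 34.2. Under the 10 kb cut, proteasome subunits had the highest density of any list, 1.19 per kb (0.515 to 2.35), on 8 members in 6.70 kb.

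These lists differ in GC, with a median of 56.0% at the members in collagens and 40.0% at those in chemoreceptor genes. Against the number given by the density of all eligible sequence at the same GC, translation factors had 11 and 7.28, collagens 18 and 19.4, chaperones 21 and 13.1, chromatin regulators 97 and 90.3, chemoreceptors 66 and 79.0 and F-box and MATH genes 23 and 28.6. All these ratios had intervals that include 1, as did those of the other 13 lists. So did that of proteasome subunits, with 8 members and 3.56 (ratio 2.25, 0.971 to 4.43).

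**Figure D5:**
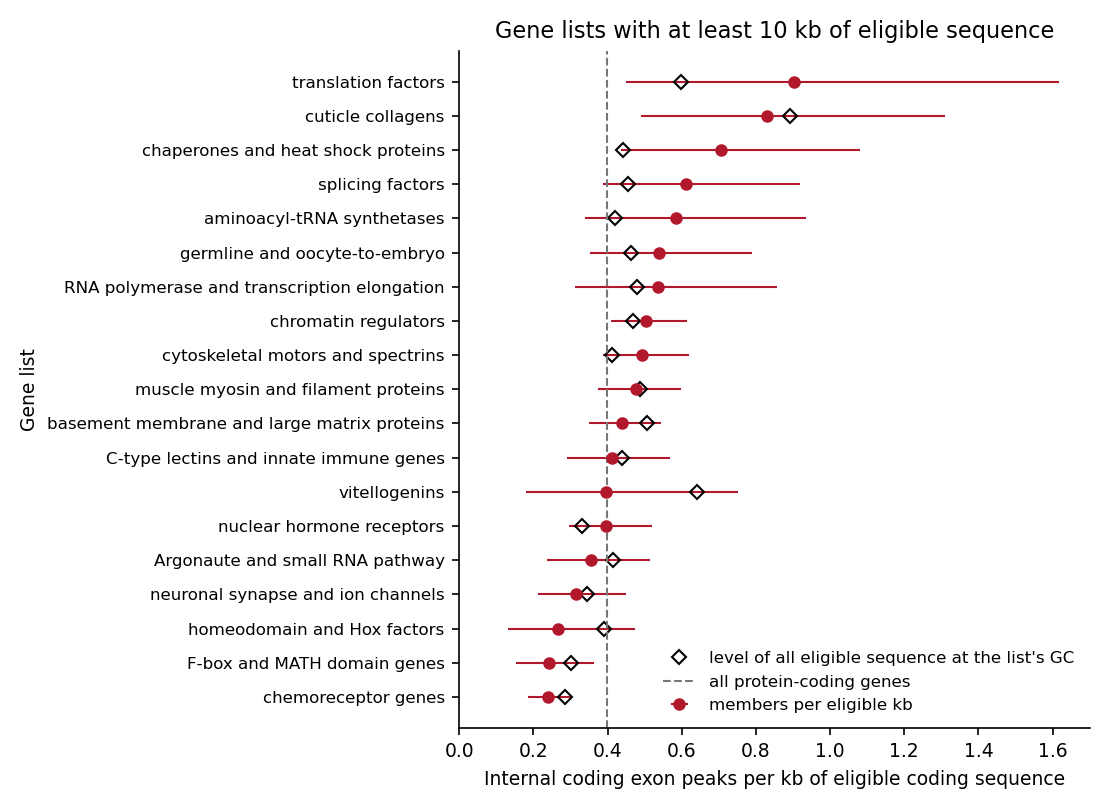
Internal coding exon peaks per kb of eligible coding sequence (horizontal axis) in the 19 gene lists with at least 10 kb of it (rows), with 95% Poisson intervals, beside the level that all eligible sequence has at the same GC content (diamonds) and the 0.399 per kb of all protein-coding genes (dashed line). Translation factors and cuticle collagens are highest at 0.903 and 0.829, chemoreceptor genes lowest at 0.238, and every interval reaches its diamond.

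Among genes for transcription factors, the intervals of member density included that of all genes. Of the 19 T-box genes with eligible sequence, 1 had a member (5.26%, against 25.1% of all genes), tbx-2, with a signal of 19.2 at rank 26861. That was 0.121 per kb (0.00307 to 0.676) over 8.25 kb. The share of genes is no like comparison, since it rises with the length of eligible sequence. The density of all eligible sequence at the same GC gives 3.35 members (ratio 0.299, 0.00756 to 1.66). Homeodomain and Hox genes had 11 members in 41.5 kb (0.265 per kb, 0.132 to 0.475), led by ceh-60 with 52.6. Nuclear hormone receptors had 51 in 129 kb (0.396 per kb), led by nhr-1 with 51.9. Vitellogenins, which the adult intestine expresses strongly, had 9 in 22.7 kb (0.396 per kb), and 6 of them were in vit-6, of which 5 had a peak in both replicates. Muscle myosin and filament genes had 74 members (0.477 per kb), basement membrane and large matrix genes 84 (0.440 per kb) and cytoskeletal motors and spectrins 73 (0.493 per kb). Among Argonaute and small RNA pathway genes there were 28 (0.356 per kb), the strongest in hrde-1, for a nuclear Argonaute, with 52.4. The rule leaves little or nothing to see in short genes: ribosomal protein genes had 0.327 kb of eligible sequence and histone genes 0.769 kb, both with 0 members, and major sperm protein genes had none.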

How the data were processed

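The authors' relaxed peak lists of replicate 1, replicate 2 and both libraries pooled, and their list past the IDR threshold, were used on build ce11. Relaxed lists were made from alignments, per the labels and the files deposited with the samples. Which aligner and peak caller were run, and their versions, is not given in the sources used here. Signal values are as the authors deposited them, with no stated scaling, and served to describe and rank peaks within a list. The deposited −log10 q was used at a q of 0.05. The files hold no read counts, so depth is unknown. Nothing says whether the 2 libraries came from separate cultures beyond the name biological replicate.

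Summits were placed on the Ensembl release 115 annotation and RefSeq sequence of WBcel235, counting from 1, with Python 3.11.15, numpy 2.4.6, pandas 2.3.3 and scipy 1.17.1. GC and motifs were read from 100 bases before to 100 after the summit. A replicate or IDR peak counted as shared with 1 bp of overlap, the strongest one where several overlapped. Shares have 95% Wilson and densities 95% exact Poisson intervals. With 1 group there was no test of a condition, and no p-value is given. Genes were named by rule: the 20 strongest members, those overlapping an IDR peak or among the 1000 strongest of both replicates, the 5 hosts with most members and ties, up to 3 members of each gene list, of which the first is given and for chaperones all 3, and members within 25 kb of tbx-9. Outside the rule, T09B4.5, nadk-2 and shn-1 were named after their values were seen. Sequences on 1 chromosome and repeated ones were left out. The members, lists and rules were chosen with earlier results of these data known.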

Additional observations from a re-analysis of the deposited data

How the results depend on the processing

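Each of the 10 results was recomputed under alternatives, 114 values in all, and 87 stayed within the SD of the replicate lists, the 95% interval where these give no value, or 1.5 times for the count. Some of the 87 could not move, since the midpoint of a peak gave the same value as its summit in every result. The SD comes from the same replicate lists that it judges, so it is wide where they differ, as for the density ratio (SD 0.343). A value that stayed is thus no measure of agreement between replicates. With each replicate's list alone, the number of members was 3163 to 5346, the density ratio 1.09 to 1.57, the median percentile 48.9 to 49.4, the share among the 1000 strongest 1.33% to 1.39%, the median GC 42.3% to 42.8%, the share with GGTGTG 4.90% to 4.98% and the share on X 19.5% to 20.3%. With starts more than 2000 bp away, 2276 members were left, with 0% at IDR peaks, 0.308% among the 1000 strongest, 43.8% median GC and 22.5% on X. With starts more than 500 bp away the last 3 were 0.707%, 42.8% and 18.3%. With ends more than 500 bp away neither ttr-15 nor clec-264 was a member, so that 0% overlapped IDR peaks, 0.429% were among the 1000 strongest and 4.79% had GGTGTG. By construction, overlap of 50% of the shorter peak gave 25.4% in both replicates, the 500 and 2000 strongest peaks held 0.0663% and 2.96% of members, GC was 44.6% and 41.9% within 50 and 200 bp, and GGTGTG was at 2.34% and 9.37% of members within the same distances. Without the strongest 1% of members, rho was 0.0621. For these rules the causes were not tested. No paired analysis was possible because there is 1 group.

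The relaxed lists hold at most 30000 peaks, so which weak members are counted depends on where a list ends. Depth is unknown, and 2 libraries give no estimate of spread between animals beyond their difference. Signal at coding exons in the control experiment was not analysed here.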
